A study of Homo sapiens with 12 samples.

Results

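The antizyme and polyamine synthesis genes are 8 genes chosen by name for their roles in the polyamine circuit: OAZ1, OAZ2, AZIN1, ODC1, AMD1, SRM, SMS and SAT1. No rule on their measured values was used, but earlier results of these data were known when they were chosen. All 8 were among the 59385 gene names of the count table, and all 8 passed the filter on low counts, as did 18166 genes in all. The libraries came from HEK293T, a human embryonic kidney line that carries the SV40 large T antigen, with a Dox-inducible non-targeting shRNA (shCtrl) or an shRNA against PRRC2B (shPRRC2B). PRRC2B is an RNA-binding protein that the study examined for its part in translation initiation, and the comparison between the lines asks which mRNAs change in abundance or in ribosome loading when it is depleted. Both lines received Dox for 36 h and each was a stable single clone, so the shRNA and the clone cannot be told apart. From each line, polyadenylated RNA was sequenced from the whole lysate (total RNA) and from the pooled heavy fractions of a sucrose gradient (polysome RNA), in 3 replicates, which gave 4 groups and 12 libraries. The ratio of polysome to total RNA is called translation efficiency (TE), as in the study.

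The polyamines putrescine, spermidine and spermine are small cations that every growing cell makes, and spermidine is also the source of hypusine, the modified residue of the translation factor eIF5A. Ornithine decarboxylase (ODC1) makes putrescine, S-adenosylmethionine decarboxylase (AMD1) supplies the aminopropyl donor, and spermidine synthase (SRM) and spermine synthase (SMS) add aminopropyl groups in turn, whereas SAT1 acetylates spermidine and spermine for export or breakdown. Control of the circuit lies largely in translation: when polyamines are abundant, ribosomes shift frame on the antizyme mRNAs (OAZ1, OAZ2), antizyme carries ODC1 to the proteasome, and the antizyme inhibitor AZIN1, an inactive relative of ODC1, takes antizyme away from it.

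The sequences at which that control acts are shown for the members whose reading depends on them, read from hg38 with the GENCODE 44 gene models. In both antizyme mRNAs the first reading frame ends at a TGA stop codon, in capitals, and the full-length protein is made only by ribosomes that skip 1 base there and go on in the +1 frame. In OAZ1 the stop follows 204 coding bases (68 codons), and the window is chr19:2271431-2271460 on the plus strand, within the coding part. In OAZ2 the stop follows 96 coding bases (32 codons), and the window is chr15:64691498-64691527 on the minus strand, also coding. The windows were identical at 28 of 30 bases.
OAZ1: cggtggtgctccTGAtgcccctcacccacc
OAZ2: ctgtggtgctccTGAtgcccctcacccact
The AMD1 mRNA carries a short open reading frame in its leader, known to slow initiation at the main start when polyamines are high. It lies at chr6:110874796-110874816 on the plus strand, in the 5′ UTR, 11 nt from the 5′ end of a leader of 321 nt, and holds 6 codons and a stop (start and stop in capitals).
AMD1 upstream frame: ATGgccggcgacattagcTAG

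Library totals lay between 9855734 and 20837542 counts, with medians of 18477467 (shCtrl total), 13142751 (shCtrl polysome), 16537300 (shPRRC2B total) and 15462334 (shPRRC2B polysome). PRRC2B, the targeted gene, was 272, 313 and 258 CPM (counts scaled to a common library size, with TMM factors) in shCtrl total RNA and 97.8, 102 and 100.3 CPM in shPRRC2B total RNA, a log2 change of -1.49 (SE 0.17, adjusted p = 4.25e-06, edgeR). Replicate polysome libraries differed more among themselves (Pearson r of log2 values from 0.946 to 0.974) than replicate total libraries (0.987 to 0.989). All 6 markers fixed for HEK293T (PAX2, VIM, CDH2, KRT8, KRT18 and LIN28B) were above 1 CPM in every group mean, and PTPRC, CD3E, PECAM1, CDH5 and ALB, which mark blood, endothelial and liver cells, were near 0. The summed level of the 12 markers of other cell types was 29.6 to 34.8 CPM in shCtrl total, 44.8 to 47.0 in shPRRC2B total, 18.5 to 25.3 in shCtrl polysome and 17.9 to 23.8 in shPRRC2B polysome libraries, led in total RNA by COL1A1, and its part in the results was not tested. The nuclear RNA MALAT1 was 14.97, 162 and 368 CPM in shCtrl polysome replicates 1, 2 and 3, against 4.38 to 16.98 CPM in shPRRC2B polysome libraries. The other nuclear RNAs fixed for this check did not follow that pattern. NEAT1 was 68.5, 23.7 and 39.3 CPM in the shCtrl polysome libraries, against 26.3 to 29.1 CPM in shPRRC2B. KCNQ1OT1 was 0.54 to 1.44 CPM against 0.76 to 0.95 CPM.

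Knockdown of PRRC2B went with a higher polysome-to-total ratio for OAZ1, SRM and SAT1 and a lower one for AZIN1, while the ratios of OAZ2, ODC1, AMD1 and SMS did not pass the test. OAZ1 and SAT1 passed in all alternative fits, whereas SRM and AZIN1 did not pass once the trend with transcript length was removed. The genes differed in abundance as well: OAZ1 rose in polysome RNA alone, SRM rose in both fractions, and SAT1 fell in total RNA but rose in polysome RNA. A gene was called when its edgeR quasi-likelihood test gave a Benjamini-Hochberg adjusted p under 0.05, over all 18166 genes, with a log2 change past 0.5 in either direction. By TE, 3 of the 8 members were called up, against 10.7% of all genes tested, and 1 was called down, against 16.4%. In total RNA, 2 were higher (14.9% of all genes) and 1 was lower (14.1%), and in polysome RNA 5 were higher (18.4%) and 0 were lower (21.4%). The median log2 change of the 8 was 0.40 in TE, 0.03 in total RNA and 0.53 in polysome RNA, where the medians of all genes tested were -0.03, 0.04 and -0.01. These comparisons share libraries, so their calls are not independent of each other. The share of all counts that fell on the 8 members was 0.151% to 0.156% in shCtrl total, 0.163% to 0.166% in shPRRC2B total, 0.351% to 0.411% in shCtrl polysome and 0.663% to 0.722% in shPRRC2B polysome libraries.

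**Figure D1:**
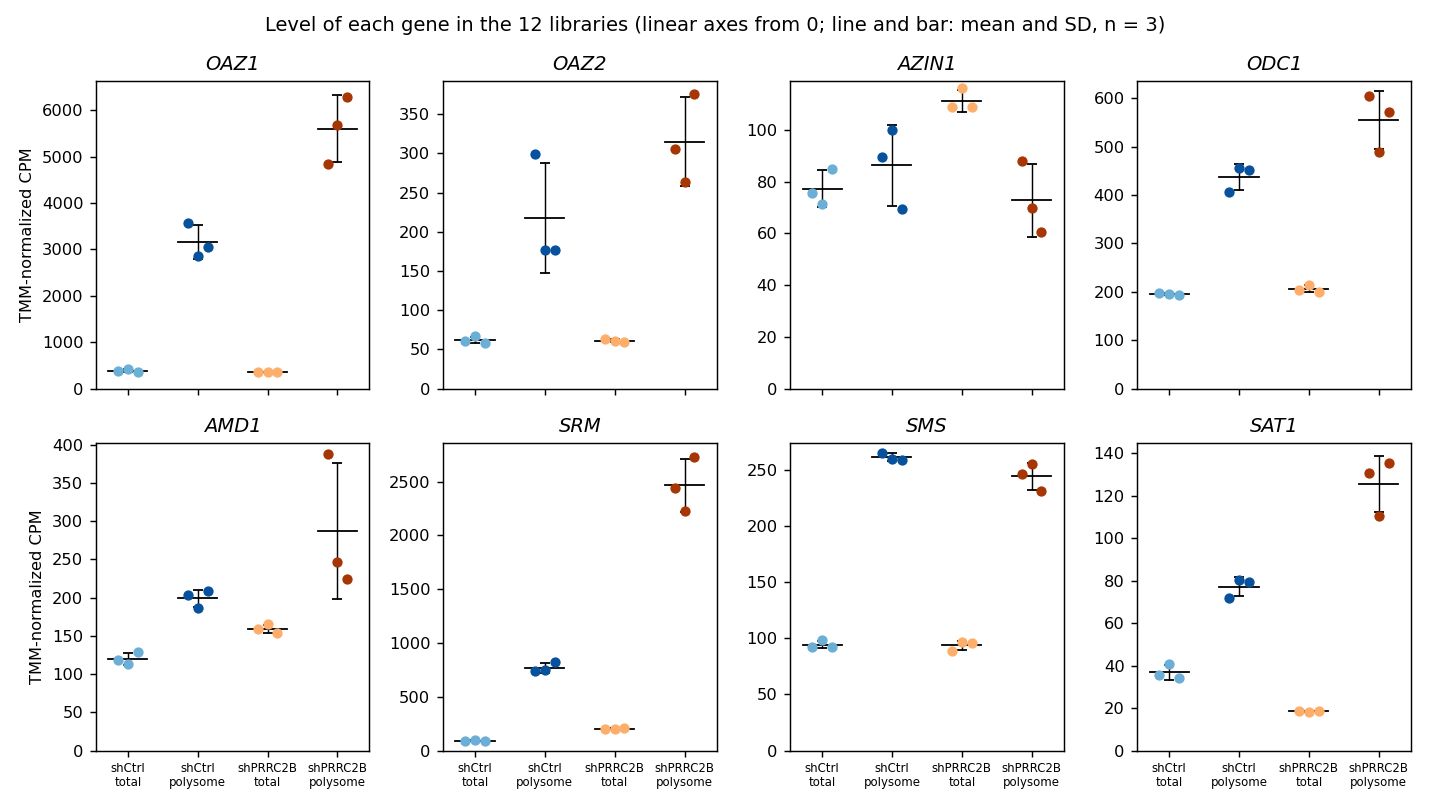
TMM-normalized CPM of each of the 8 genes (linear y axes from 0, each with its own scale) in the 12 libraries by line and fraction, with 1 point per library and the mean and SD of the 3 replicates. OAZ1 and SRM stand highest in the shPRRC2B polysome libraries, SAT1 is lowest in shPRRC2B total RNA, and AZIN1 alone shows no clear rise from total to polysome RNA in either line.

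OAZ1 encodes the main antizyme. It was 381, 423 and 350 CPM in shCtrl total RNA and 350, 367 and 353 CPM in shPRRC2B total RNA. In polysome RNA it was 3561, 2850 and 3042 CPM in shCtrl and 4834, 5684 and 6282 CPM in shPRRC2B. The total libraries of both lines overlapped, whereas every shPRRC2B polysome library lay above every shCtrl one. The change in total RNA was -0.11 on the log2 scale (SE 0.14, adjusted p = 0.592) and the change in polysome RNA was 0.83 (SE 0.14, adjusted p = 1.71e-04, 1.78-fold). Its polysome-to-total ratio by replicate number was 9.36, 6.74 and 8.71 in shCtrl and 13.8, 15.5 and 17.8 in shPRRC2B, without overlap, and the TE change was 0.94 (SE 0.20, adjusted p = 0.00261, 1.92-fold). The polysome libraries counted here hold OAZ1 mRNA on either reading frame, and the counts do not tell ribosomes that shifted frame from those that did not. OAZ1 was also the only member on a list of 223 PRRC2B-bound RNAs from crosslinking (PAR-CLIP), which held 1 other pathway gene, the transporter subunit SLC3A2 (TE change -0.32, SE 0.25, adjusted p = 0.369, not called). The study reported more TE-down than TE-up mRNAs among those bound. The TE-up bound mRNAs that it followed at earlier times did not move steadily to heavier polysomes. It proposed that their raised TE was probably a secondary or compensatory effect, and its text does not say whether OAZ1 was among them. Whether binding bears on the TE change of OAZ1 was not tested.

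OAZ2 encodes a second antizyme with a similar frameshift site. In total RNA it was 61.2, 66.5 and 58.3 CPM in shCtrl and 63.7, 60.9 and 59.1 CPM in shPRRC2B (log2 change -0.02, SE 0.18, adjusted p = 0.946). Polysome RNA held 299, 177 and 176 CPM in shCtrl and 305, 264 and 376 CPM in shPRRC2B. The polysome groups overlapped through shCtrl polysome replicate 1, which lay far above its companions, and that library also correlated least with the other shCtrl polysome libraries over all genes. The polysome change was 0.53 (SE 0.18, adjusted p = 0.0216), and the TE change of 0.55 did not pass (SE 0.25, 95% interval 0.02 to 1.09, adjusted p = 0.115). Without shCtrl polysome replicate 1 the TE change was 0.83 (adjusted p = 0.00154). That fit keeps shCtrl polysome replicates 2 and 3, which held more MALAT1 (162 and 368 CPM) than replicate 1 (14.97 CPM). The polysome call was lost without shCtrl polysome replicate 2 (0.31) or 3 (0.31), or without shPRRC2B polysome replicate 1 (0.45) or 3 (0.30).

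AZIN1, the antizyme inhibitor, moved the other way in TE. In total RNA it was 75.7, 71.3 and 85.1 CPM in shCtrl and 108.8, 116 and 108.8 CPM in shPRRC2B, with no overlap (log2 change 0.53, SE 0.15, adjusted p = 0.012, 1.44-fold). In polysome RNA it was 89.7, 99.9 and 69.3 CPM in shCtrl and 88.2, 69.7 and 60.6 CPM in shPRRC2B, and the groups overlapped (log2 change -0.24, SE 0.15, adjusted p = 0.206). Its polysome-to-total ratio was 1.18, 1.40 and 0.815 in shCtrl and 0.810, 0.601 and 0.557 in shPRRC2B, just without overlap, and the TE change was -0.77 (SE 0.21, adjusted p = 0.0131, 1.70-fold lower). The call in total RNA was near its threshold and was lost, at 0.47 to 0.49, when any 1 of the 6 polysome libraries or the second total library of either line (shCtrl total replicate 2, shPRRC2B total replicate 2) was left out. The polysome decrease was called, at -0.51 (adjusted p = 0.013), without shPRRC2B polysome replicate 1. MAILR, a long non-coding RNA on the opposite strand that overlaps AZIN1, held 12 to 88 counts in total and 65 to 239 counts in polysome libraries, up to 38.2% of the AZIN1 count in a library. The counting options in the methods include no strand option, which leaves featureCounts unstranded, so strand did not separate the pair where they overlap. The MAILR counts are reads assigned to MAILR and do not measure how many reads in the AZIN1 counts came from MAILR, which was not tested.

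ODC1, the target of antizyme and the first enzyme of the pathway, differed little between the lines. In total RNA it was 197, 195 and 194 CPM in shCtrl and 204, 214 and 200.4 CPM in shPRRC2B (log2 change 0.08, SE 0.12, adjusted p = 0.647). Its polysome level was 407, 456 and 451 CPM in shCtrl and 605, 490 and 571 CPM in shPRRC2B. The polysome groups did not overlap, and the change of 0.34 (SE 0.12, adjusted p = 0.025) lay under the fold threshold, so it was not called. Its TE change was 0.27 with a 95% interval from -0.08 to 0.62 (adjusted p = 0.252). Within each library, OAZ1 exceeded ODC1 per transcript length 4.24-fold ± 0.406 (mean and SD, n = 3) in shCtrl total and 3.73-fold ± 0.0566 in shPRRC2B total RNA, and 15.6-fold ± 2.84 and 21.997-fold ± 4.18 in polysome RNA.

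AMD1, the decarboxylase with the upstream frame shown above, was 118, 114 and 129 CPM in shCtrl total RNA and 159, 165 and 154 CPM in shPRRC2B total RNA. The groups did not overlap, but the change of 0.41 (SE 0.16, adjusted p = 0.061) did not pass. In polysome RNA it was 203, 187 and 208 CPM in shCtrl and 389, 247 and 225 CPM in shPRRC2B, a change of 0.52 (SE 0.16, adjusted p = 0.0143). This call rested on shPRRC2B polysome replicate 1: without it the polysome change was 0.14 (adjusted p = 0.371) and the TE change turned from 0.12 (SE 0.23, adjusted p = 0.745) to -0.22. It was also lost without shCtrl polysome replicate 1 (0.47), 2 (0.39) or 3 (0.48).

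SRM, which makes spermidine, had the largest rise of the 8 in both fractions. In total RNA it was 90.4, 98.6 and 85.4 CPM in shCtrl and 199, 201 and 206 CPM in shPRRC2B (log2 change 1.14, SE 0.13, adjusted p = 4.21e-06, 2.21-fold). In polysome RNA it was 743, 746 and 823 CPM in shCtrl and 2438, 2229 and 2727 CPM in shPRRC2B (1.68, SE 0.13, adjusted p = 3.99e-08, 3.20-fold). Neither pair of groups overlapped. Its polysome-to-total ratio was 8.21, 7.57 and 9.64 in shCtrl and 12.3, 11.1 and 13.2 in shPRRC2B. The TE change of 0.54 (SE 0.18, adjusted p = 0.0314) was just over the fold threshold, and leaving out 1 library ended the call in 9 of 12 cases (0.43 to 0.55). The call stood without shCtrl polysome replicate 3, shCtrl total replicate 3 or shPRRC2B polysome replicate 2.

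SMS, which converts spermidine to spermine, was 92.5, 98.1 and 92.2 CPM in shCtrl and 88.9, 96.6 and 95.7 CPM in shPRRC2B total RNA. Polysome RNA held 265, 260.0 and 259 CPM in shCtrl and 246, 255 and 231 CPM in shPRRC2B. The total groups overlapped and the shPRRC2B polysome libraries lay slightly below the shCtrl ones, with changes of -0.01 (SE 0.11, adjusted p = 0.96) and -0.10 (SE 0.11, adjusted p = 0.479). The TE change was -0.09, with a 95% interval from -0.41 to 0.23. The ratio of SRM to SMS per transcript length within a library went from 1.31 (mean) in shCtrl total to 2.91 in shPRRC2B total RNA, and from 3.99 to 13.7 in polysome RNA.

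SAT1, the acetyltransferase that starts polyamine catabolism, had the largest TE change of the 8. In total RNA it was 35.5, 40.8 and 34.4 CPM in shCtrl and 18.7, 18.3 and 18.6 CPM in shPRRC2B (log2 change -0.997, SE 0.12, adjusted p = 1.26e-05, 2.00-fold lower). Its polysome level was 72.0, 80.1 and 79.4 CPM in shCtrl and 131, 110.4 and 135 CPM in shPRRC2B (0.70, SE 0.12, adjusted p = 1.6e-04, 1.63-fold). The groups did not overlap in either fraction and were ordered in opposite ways. The polysome-to-total ratio was 2.03, 1.96 and 2.31 in shCtrl and 6.999, 6.03 and 7.29 in shPRRC2B, and the TE change was 1.70 (SE 0.17, adjusted p = 1.11e-05, 3.25-fold), higher than 93.4% of all genes tested.

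**Figure D2:**
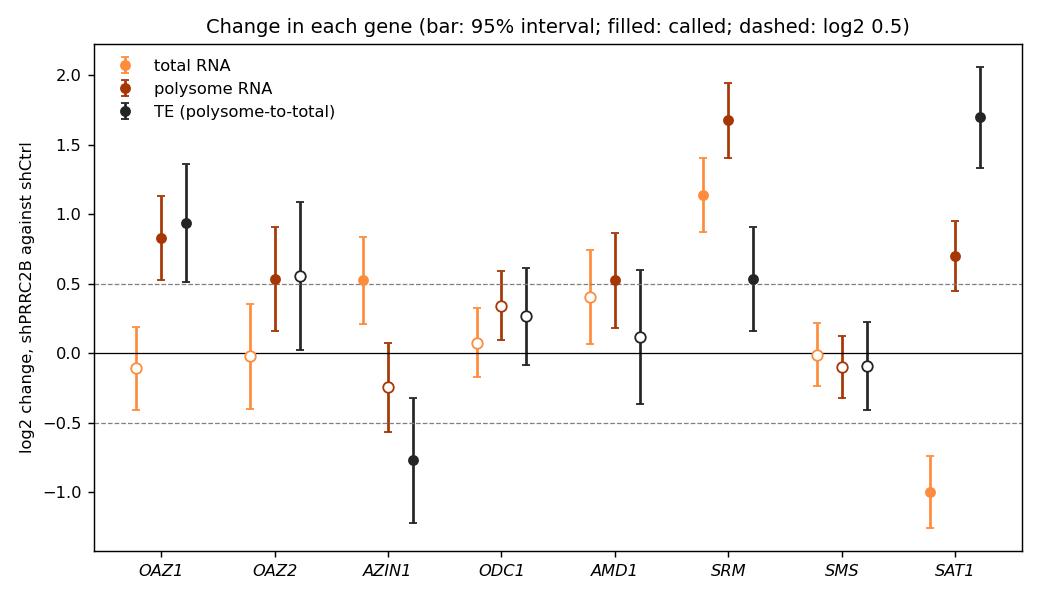
Log2 change between shPRRC2B and shCtrl (y axis) for each of the 8 genes (x axis) in total RNA, polysome RNA and TE, with 95% intervals from the edgeR fit, filled points for called changes and dashed lines at the fold threshold. SAT1 has a negative change in total RNA and a positive one in polysome RNA, SRM is positive in all 3, and the SMS intervals span 0.

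The polysome-to-total comparison within each line asks how far each mRNA is held in the pooled polysome fractions. The pool does not tell lighter from heavier polysomes. In shCtrl, 7 of the 8 members were called higher in polysome than in total RNA (32.5% of all genes) and 0 were lower (39.8%). In shPRRC2B, 7 were higher (36.6%) and 1, AZIN1, was lower (42.3%). The ratios hold for the scaling chosen: with TMM within each fraction the all-gene median moved from -0.22 to -1.22 in shCtrl and from -0.22 to -1.16 in shPRRC2B, the higher and lower calls over all genes went from 5906 and 7222 to 3189 and 10681 in shCtrl and from 6655 and 7676 to 4298 and 10186 in shPRRC2B, and the members called higher fell to 3 and 4. OAZ1 stood at 3.04 (SE 0.15) in shCtrl and 3.97 (SE 0.16) in shPRRC2B on the log2 scale, above 94.8% and 96.5% of all genes tested. SRM stood at 3.07 (SE 0.13) and 3.61 (SE 0.14), above 95.03% and 94.3%. OAZ2 was at 1.81 and 2.36, ODC1 at 1.16 and 1.43, SMS at 1.47 and 1.38, and SAT1 at 1.06 and 2.76. AMD1, at 0.73 and 0.85, turned to -0.28 and -0.09 with TMM within each fraction, and AZIN1, at 0.16 in shCtrl, turned to -0.85, while in shPRRC2B it was at -0.61 (adjusted p = 0.00129). AZIN1 lay above 57.3% of genes in shCtrl and above 44.4% in shPRRC2B, the lowest place of the 8 in both lines. The ratio also fell with transcript length: its log2 median was 1.86 (shCtrl) and 2.33 (shPRRC2B) over genes under 1500 nt. At 3000 nt or more it was -1.13 and -1.52. With that trend removed, AZIN1 was at 0.96 in shCtrl and 0.50 in shPRRC2B, and SAT1 was at -0.64 in shCtrl. With a replicate block added, OAZ1 was at 1.44 and 2.06, still called.

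**Figure D3:**
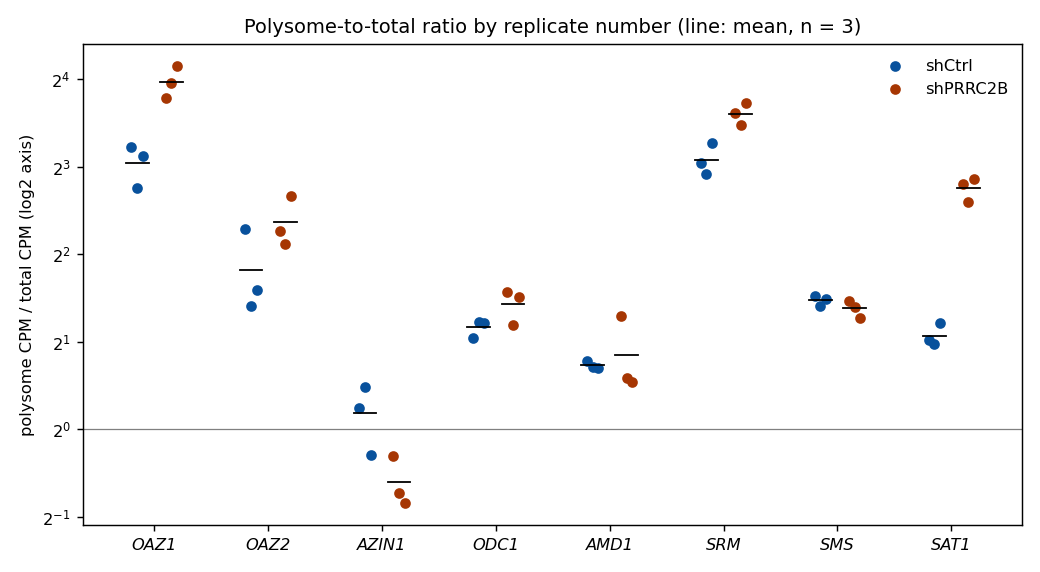
Polysome CPM divided by total CPM of the library with the same replicate number (log2 y axis) for each of the 8 genes in shCtrl and shPRRC2B, with a line at the mean of 3. The ratios of OAZ1, SRM and SAT1 lie higher in shPRRC2B without overlap, those of AZIN1 lie lower, and those of OAZ2, ODC1, AMD1 and SMS overlap between the lines.

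Levels can be set side by side only per transcript length. In shCtrl total RNA the order in CPM per kb was OAZ1 (335 ± 31.9, SD, n = 3), ODC1 (78.9 ± 0.689), SRM (72.6 ± 5.26), SMS (55.4 ± 1.96), SAT1 (35.2 ± 3.30), AMD1 (35.1 ± 2.25), OAZ2 (32.1 ± 2.16) and AZIN1 (18.4 ± 1.68), where SAT1, AMD1 and OAZ2 overlapped with their neighbours. In shPRRC2B total RNA SRM was second (160 ± 2.97) and SAT1 last (17.6 ± 0.192). In polysome RNA OAZ1 was first and SRM second in both lines (2745 ± 320 and 612 ± 36.0 in shCtrl, 4878 ± 634 and 1956 ± 199 in shPRRC2B), and AZIN1 was last (20.6 ± 3.71 and 17.4 ± 3.35). OAZ1 was thus the most abundant of the 8 in every group, and it exceeded OAZ2 within libraries by 10.4-fold and 9.82-fold in total RNA and by 25.4-fold and 30.4-fold in polysome RNA (shCtrl and shPRRC2B).

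TE changed with transcript length across all genes, and the members differ in length. The median TE change was 0.43 over 3117 genes with a canonical transcript under 1500 nt, 0.11 over 4671 genes of 1500 nt to under 3000 nt and -0.40 over 7974 genes of 3000 nt or more. The TE-up members were the shortest of the 8 (SAT1 1049 nt, OAZ1 1148 nt, SRM 1260 nt), and the TE-down member AZIN1 was the longest (4196 nt). Within its own length class, the TE change of SAT1 was higher than that of 90.1% of genes, OAZ1 74.5%, SRM 55.4% and AZIN1 32.8%. AMD1, at 3423 nt, was higher than 74.5% of its class although its TE change was close to 0. With the length trend removed, the TE changes of OAZ1 (0.61, adjusted p = 0.018) and SAT1 (1.35, adjusted p = 9.45e-05) were still called, and those of SRM (0.24, adjusted p = 0.309) and AZIN1 (-0.46, adjusted p = 0.111) were not. The polysome change of SAT1 (0.43) then lay under the fold threshold, and that of OAZ2 was 0.38 (adjusted p = 0.0906).

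**Figure D4:**
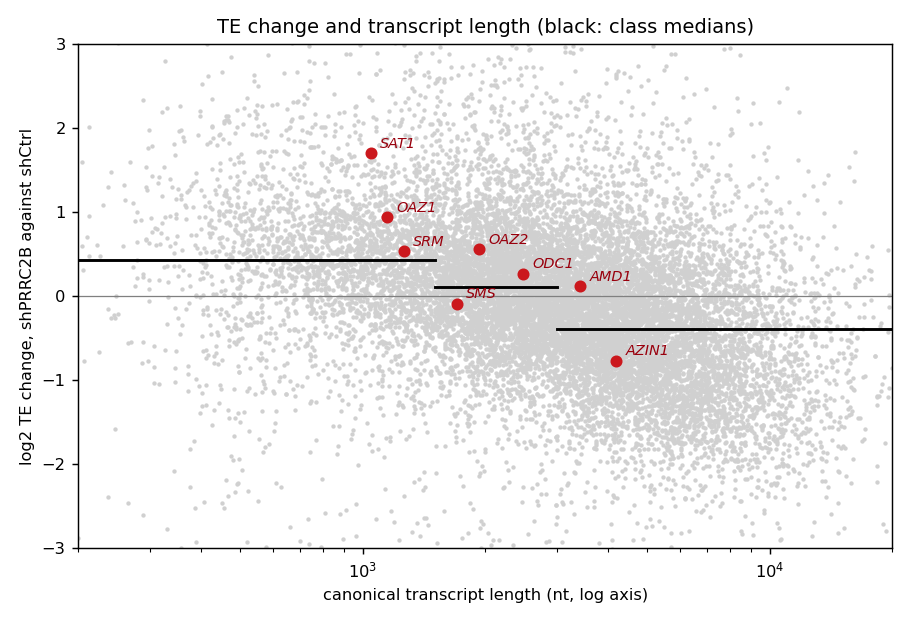
Log2 TE change (y axis) against canonical transcript length in nt (log x axis) for all genes with a length (grey), with the medians of the 3 length classes as black lines and the 8 genes in red, where 436 genes lie outside the axes. SAT1 and OAZ1 stand above the median of short transcripts, SRM close to it, and AZIN1 below the median of long ones.

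The rest of the polyamine pathway was followed in 23 other genes (paralogs, oxidases, precursor supply, methionine salvage, hypusination and transport), of which 22 passed the filter and ARG1, with at most 17 counts in a library, did not. Of these, 2 were TE-up and 3 TE-down, close to the shares of all genes tested (10.7% and 16.4%), and the median TE change was -0.07. In total RNA 5 were higher (14.9% of all genes) and 1 was lower (14.1%), and in polysome RNA 7 were higher (18.4%) and 3 lower (21.4%). ATP13A3, a polyamine transporter, was 64.2, 63.9 and 69.8 CPM in shCtrl and 97.3, 99.7 and 104 CPM in shPRRC2B total RNA, and 14.8, 20.9 and 17.5 CPM against 6.18, 4.58 and 3.42 CPM in polysome RNA. It thus rose in total RNA (0.60, adjusted p = 0.00467), fell in polysome RNA (-1.89, adjusted p = 7.52e-07) and was TE-down (-2.50, SE 0.24, adjusted p = 9.79e-06), without overlap in either fraction. With the length trend removed its total RNA change was 0.42, under the fold threshold. SLC18B1, a vesicular polyamine transporter (TE change -0.57, SE 0.16, adjusted p = 0.0158), and MRI1, of methionine salvage (-0.68, SE 0.24, adjusted p = 0.0464), were also TE-down.

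AZIN2, a relative of AZIN1 that also binds antizyme, was TE-up (1.08, SE 0.31, adjusted p = 0.0167): it fell in total RNA from 11.6, 11.4 and 9.94 CPM in shCtrl to 4.71, 5.68 and 4.89 CPM in shPRRC2B, and was 29.1, 13.9 and 17.8 against 17.2, 22.4 and 20.3 CPM in polysome RNA, where the groups overlapped. The TE changes of AZIN1 and AZIN2 thus had opposite signs. SAT2, named after SAT1 for its sequence, was TE-up (0.91, SE 0.19, adjusted p = 0.00194), with total RNA of 22.8, 22.8 and 20.9 against 25.0, 23.5 and 21.4 CPM and polysome RNA of 152, 131 and 113 against 253, 234 and 297 CPM. Of the 4 hypusination genes, among them EIF5A, 0 were called in TE, against 10.7% of all genes tested called up and 16.4% down. With 4 genes, a count of 0 does not set them apart from those shares. The TE-down call of MRI1 was lost in 9 of the 12 fits without 1 library (-0.44 without shCtrl polysome replicate 3) and under 8 of 12 other alternatives, and that of SLC18B1 without shCtrl total replicate 2.

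**Figure D5:**
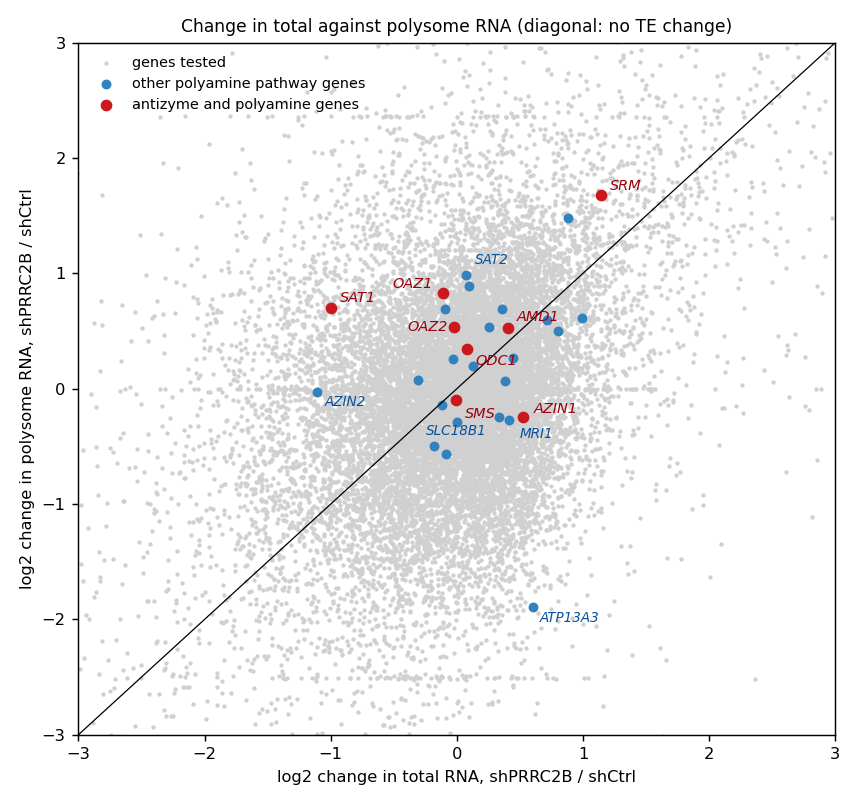
Log2 change in total RNA (x axis) against that in polysome RNA (y axis), shPRRC2B over shCtrl, for all genes tested (grey), the 22 other polyamine pathway genes (blue, named where called in TE) and the 8 genes (red), where 996 genes lie outside the axes. Points above the diagonal have a positive TE change: SAT1 and OAZ1 lie above it, and AZIN1 and ATP13A3 lie below it.

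The genes most like the control points of the circuit were taken by the smallest root mean square difference of log2(CPM + 1), centred on each gene's mean, over the 12 libraries, among 10046 genes of at least 10 CPM. For OAZ1 they were MYL6B (0.087), TMEM147 (0.118) and COPRS (0.119), and for ODC1 they were TRIT1 (0.093), LIN52 (0.105) and C16orf87 (0.107). For AZIN1 they were SESN1 (0.106), SPRTN (0.125) and NUDCD1 (0.126), and for AMD1 they were HCCS (0.132), YAF2 (0.138) and BRMS1L (0.155). The other 7 members were not among the 3 nearest genes of any of these 4. With 3 places among 10046 genes, this does not show whether the members vary together, which was not tested.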

How the data were processed

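Total and polysome RNA of the shCtrl and shPRRC2B lines was sequenced in 3 replicates each (12 libraries). The authors deposited raw counts per gene name, without normalization. Per the submitters' processing notes and the methods, reads were trimmed (Trimmomatic 0.36), mapped to GRCh38 (HISAT2, with a version that differs between the notes and the methods) and counted on GENCODE 38 gene names with featureCounts (Subread 2.0.1). The counting options listed in the methods include no strand option, and without one featureCounts ignores strand. Pseudogene copies of OAZ1, AMD1, SRM and SMS held at most 7 counts in a library. The labels call the replicates biological and do not say whether each was a separate culture. The p-values measure the spread between these libraries.

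The analysis used edgeR 4.0.16 in R 4.3.3. Genes were kept by filterByExpr (minimum count 10), scaled by TMM over all libraries and fitted with glmQLFit and glmQLFTest on the 4 groups with no block. Contrasts gave the changes in TE, total RNA and polysome RNA and the polysome-to-total ratio in each line, called at an adjusted p under 0.05 over all 18166 genes and a log2 change past 0.5. CPM use TMM-scaled library sizes. Transcript lengths were those of GENCODE 44, found for 15762 genes (86.8%). The fit was tested on simulated counts.

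The members and the lists of pathway genes and markers were chosen with earlier results of these data known. All 8 members are reported, with PRRC2B, each other pathway gene called in TE and the 3 genes most like OAZ1, ODC1, AZIN1 and AMD1. Alternatives were DESeq2 1.42.0, limma 3.58.1 on log2(CPM + 1), other scalings and filters, removal of the length trend (lowess), a replicate block and leaving out each library.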

Additional observations from a re-analysis of the deposited data

Results flagged for a closer look

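The polysome-to-total contrast differed between the lines, by the interaction test of edgeR, for 4 of the 8 members. OAZ1 (0.94), SRM (0.54) and SAT1 (1.70) had a higher ratio in shPRRC2B (10.7% of all genes tested), and AZIN1 (-0.77) a lower one (16.4%). Among the other pathway genes it differed for AZIN2 (1.08) and SAT2 (0.91), which were higher, and for ATP13A3 (-2.50), MRI1 (-0.68) and SLC18B1 (-0.57), which were lower. The MRI1 call was lost under 8 of 12 alternatives, the SRM call under 4 and the AZIN1 call under 2. Leaving out 1 library also ended the SRM call in 9 of 12 cases. SAT1 and ATP13A3 are of interest because total and polysome RNA moved in opposite directions in each, and in reverse order: SAT1 changed by -0.997 in total and 0.70 in polysome RNA, and ATP13A3 by 0.60 and -1.89.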

How the results depend on the processing

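The TE-up calls of OAZ1 (0.61 to 1.01) and SAT1 (1.35 to 1.77) stood under all alternatives. The member counts below show only how calls moved, and are not set against the share of all genes called under each setting. With the length trend removed, with or without the replicate block, 2 members were TE-up and 0 TE-down, 1 was higher in total RNA and 3 in polysome RNA. In polysome against total RNA, 1 was lower in shCtrl and 0 in shPRRC2B. SAT1 in shCtrl then turned to -0.64 in both fits, and AZIN1 in shPRRC2B to 0.50 (0.49 with the block). With every gene of at least 1 count, or with only the 6 libraries compared, 1 member was higher in total RNA and 3 in polysome RNA. In the former fit 2 members were TE-up. With TMM within each fraction or total-count scaling, 1 member was higher in total RNA, 3 were higher and 1 lower in polysome than in total RNA in shCtrl, and 4 were higher in shPRRC2B. The polysome-to-total change of AZIN1 in shCtrl then turned to -0.85 and -0.835, that of AMD1 to -0.28 and -0.27 in shCtrl and to -0.091 and -0.086 in shPRRC2B. The total RNA change of SAT2 (0.07) turned to -0.0036 with total-count scaling. The polysome change of AZIN2 (-0.03) turned to 0.018 with at least 10 counts in every library, 0.31 without the length trend (0.33 with the block) and 0.036 by limma.

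Without 1 library, 1 to 2 members were higher in total RNA, 3 to 5 higher and 0 to 1 lower in polysome RNA, and 1 to 4 other pathway genes TE-down (1 without shCtrl total replicate 2). The TE change of AMD1 ran from -0.22 to 0.24, the total RNA changes of OAZ2 and SMS from -0.069 to 0.034 and from -0.058 to 0.028, and the polysome change of AZIN2 from -0.33 to 0.26. The polysome calls fell to 3 without shCtrl polysome replicate 2 or 3 or shPRRC2B polysome replicate 1. The cause of these changes was not tested.

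Libraries of the same replicate number in a line did not deviate together (r from 0.0054 to 0.0786 in 6 pairs), so the numbers were not taken as a pairing. With a replicate block 3 members were TE-up and 1 TE-down, as without it, and MRI1 lost its TE-down call (adjusted p = 0.0612), as it did under 8 of the 12 alternatives in all. With a block within each line 2 members were TE-up, since SRM was lost (adjusted p = 0.0733). In 3 of 3 shPRRC2B and 1 of 3 shCtrl total libraries the best match was the polysome library of the same number.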
